A study of Oryctolagus cuniculus with 57 samples.

Results

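The genes described here serve the uptake of dietary cholesterol and fat: NPC1L1, ABCA1, SLC27A4, DGAT1, MTTP, APOA4, APOA1, CD36 and FABP2. Members were the rows of the deposited value table whose probe is assigned to one of these 9 symbols by the gene name, accession or gene identifier in the scanner files, or by the additional tables of the study. No probe was matched to APOA4, so that 8 genes with 15 probes remained, out of 7975 named genes tested and 33284 probes in the table. The study asked how eating adult feces in the nest shapes gene expression in the ileum after weaning. Ileal RNA of 57 hybrid rabbits had been labelled with Cy3 and each rabbit measured on its own Agilent array. FFab pups had been given feces of unrelated does under antibiotics, FF pups feces of unrelated does without antibiotics, and NF pups had no access to feces. In all 3 treatments the mother's own feces were removed from the nest. The kept arrays cover 9 FFab, 9 FF and 9 NF rabbits at day 49, and 10 FFab, 10 FF and 9 NF rabbits at day 35. A further NF array of day 35 was set aside by the study and enters only where said. Feces were given or withheld by nest and the litter of a rabbit is not among the labels, so p-values measure the spread between rabbits that may be littermates.

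Dietary cholesterol enters the enterocyte through NPC1L1, and the transporter ABCA1 carries cholesterol out again to form HDL particles. Fatty acids are taken up with the help of CD36 and the transporter SLC27A4 (FATP4), and are carried inside the cell by FABP2. DGAT1 makes the last step of triglyceride synthesis, MTTP loads the triglyceride onto apolipoprotein B, and APOA1 leaves the cell on chylomicrons and HDL. In mammals this work is done mostly by the proximal small intestine, while the ileum takes up bile acids through the transporter SLC10A2 and binds them with FABP6.

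The probes that carry the main results are given here, each 60 bases long and written 5′ to 3′ as in the scanner files, since what is called a gene here is the signal of 1 such oligonucleotide.
NPC1L1: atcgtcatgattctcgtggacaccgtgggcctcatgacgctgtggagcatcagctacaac
SLC27A4, probe used in the fit: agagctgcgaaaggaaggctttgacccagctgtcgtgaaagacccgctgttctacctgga
SLC27A4, other probe: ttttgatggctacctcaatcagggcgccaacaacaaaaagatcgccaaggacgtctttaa
DGAT1: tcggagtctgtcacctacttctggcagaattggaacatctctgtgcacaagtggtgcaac
APOA1: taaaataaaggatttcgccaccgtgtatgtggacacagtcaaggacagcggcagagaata
CD36, probe used in the fit: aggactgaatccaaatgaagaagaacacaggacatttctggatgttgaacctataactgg
The file annotation (oryCun2) places the NPC1L1 probe at chr10:44972926-44972985 on the minus strand and the APOA1 probe at chr1:99597012-99597071 on the plus strand. The SLC27A4 sequence used in the fit is on the array as 2 probes. The probe that stands for SLC27A4 in the tests carries another gene identifier in the files than in the study's tables. The other probe of this sequence gave -1.46 ± 0.39 for the age change in FF. ABCA1 has 4 probes of which 2 share a sequence, CD36 has 3, and each remaining gene has 1.

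Levels are quantile-normalized log2 signals, which can be compared between rabbits for 1 gene but not between genes. All 8 genes stood well above background on all 56 kept arrays. A change passed the test at a Benjamini-Hochberg adjusted p under 0.05 over all 7975 genes (limma) with a log2 change beyond 0.5.

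Before the results, the labelled tissue was set against genes that mark a position along the gut. HOX genes are expressed in a graded way along the gut of mammals, and GATA4 marks the proximal small intestine in mouse and human. In 14 of the 56 rabbits the mean log2 signal of the 12 measured HOX genes lay between 4.47 and 5.55, while it lay between 5.81 and 6.96 in the other 42. In these 14 rabbits GATA4 ranged from 6.07 to 8.61, against 4.07 to 6.78 in the others. SLC10A2 had a median of 6.66 in the 14, with 9 of them above background, against a median of 12.68 in the 42, all above background. FABP6 went down to 7.87 in the 14 and stayed between 19.05 and 19.29 in the 42. In the 42 the same few FABP6 values recurred from array to array, as happens at the highest ranks after quantile normalization. Its signal may be at a ceiling there, so that equal FABP6 levels cannot be read from it. FGF19, a hormone of the ileum that fell with age in FF rabbits, went the other way. Its median was 8.04 (5.83 to 12.63) in the 14, against 6.11 (5.34 to 10.35) in the 42. SLC10A2 and FABP6 were low in part of the 14 rabbits, and SLC10A2 was not above background in some. In others, such as NF rabbit lap77 of day 35 (FABP6 19.24, SLC10A2 12.47), both signals lay within the range of the 42. This also held for FF rabbits lap82, lap88 and lap90 of day 35, the only FF rabbits among the 14. Their FABP6 was 19.24, 19.12 and 19.19. Their SLC10A2 was 12.14, 11.63 and 11.14, against 11.11 to 13.58 in the 42.

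This division was made after the data had been seen, and HOX genes were taken because they ran opposite to NPC1L1 and CD36 over these arrays. The 14 are therefore no independent group, and the higher levels of the absorption genes in them are a description. The gap that separates them, 0.260, is barely wider than the next (0.256), although HOXB6 alone has its widest gap (0.69) below the same 14 rabbits. They make up 2 of 9 FFab, 0 of 9 FF and 2 of 9 NF rabbits at day 49, and 3 of 10 FFab, 3 of 10 FF and 4 of 9 NF rabbits at day 35. The share thus differs most between the ages in FF. The array set aside by the study had a HOX mean of 4.85. Results are given with and without the 14 rabbits. Since the levels of NPC1L1 and CD36 entered the choice of the measure, those without the 14 are a description. This holds also where an adjusted p is printed. The part that the place of sampling had in the results was not tested.

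**Figure D1:**
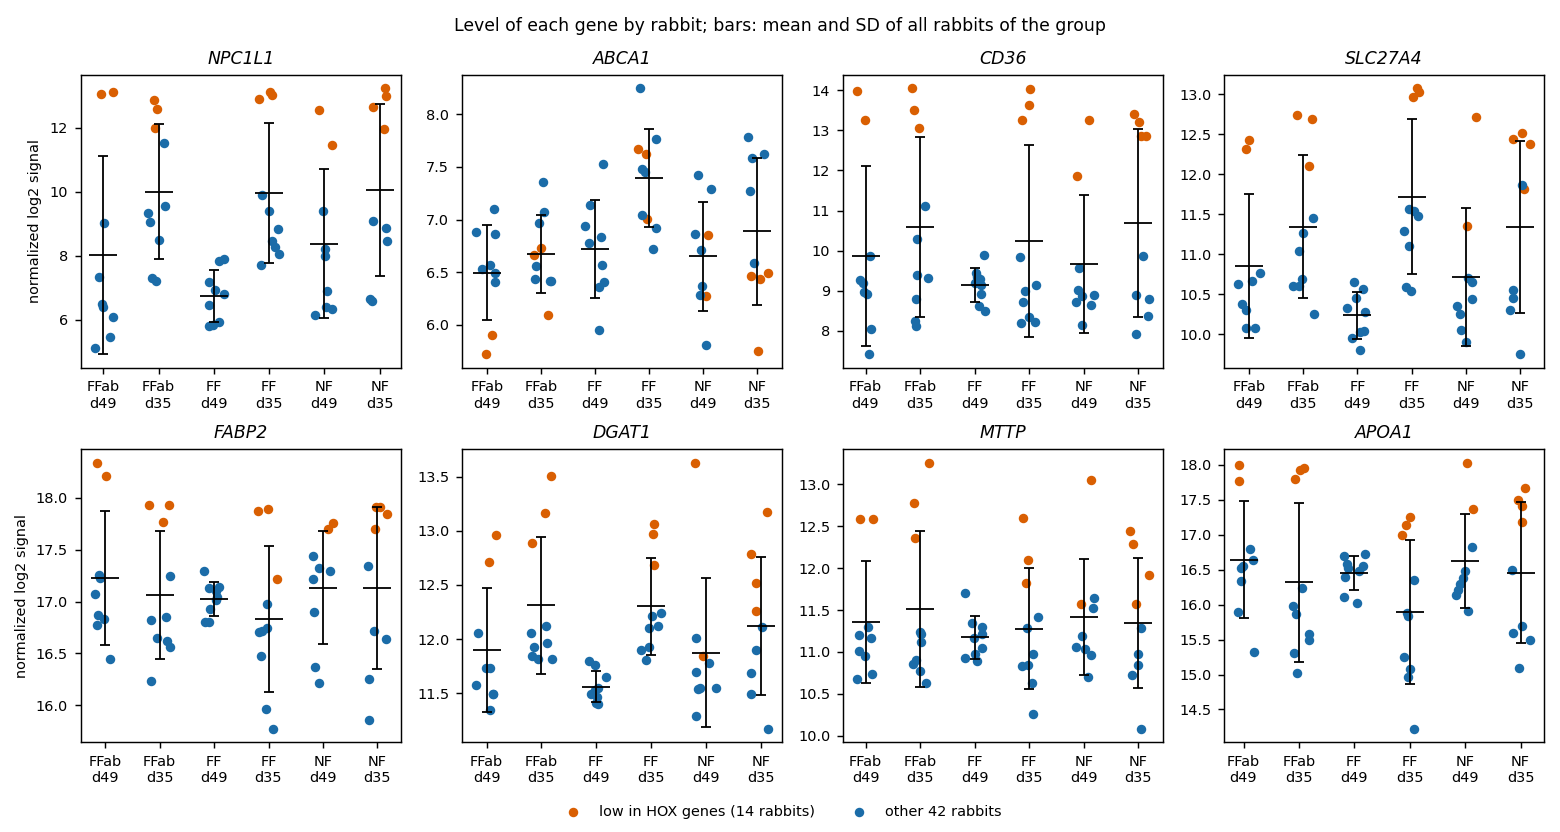
Normalized log2 signal of the 8 genes in each of 56 rabbits (points), by treatment and day (d49, d35), with the mean and SD of each group as bars. The 14 rabbits low in HOX genes (orange) hold 12 to 14 of the 14 highest levels of every gene except ABCA1, and none of them is an FF rabbit of day 49.

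NPC1L1 was lower at day 49 than at day 35 in FF rabbits. Its log2 signal had a lowest, median and highest value of 5.81, 6.79 and 7.90 in FF rabbits of day 49, against 7.72, 9.11 and 13.12 in FF rabbits of day 35. The ages overlapped only between 7.72 and 7.90, and the 3 highest rabbits of day 35 (12.90 to 13.12) were those low in HOX genes. The change was -3.22 ± 1.04 (SE, n = 9 and 10, limma, adjusted p = 0.0416), 9.34-fold lower at day 49. It was -1.92 ± 0.56 without the 14 rabbits (adjusted p = 0.0229, 3.78-fold lower, n = 9 and 7). The change thus kept its direction and was smaller. HOX genes were taken because they ran opposite to NPC1L1, so the value without the 14 rabbits is a description and no second test.

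The call of NPC1L1 in FF is close to the threshold. With the 12 rabbits lowest in HOX genes left out in place of 14, the estimate was the same (-1.92 ± 0.69) and did not pass (adjusted p = 0.0729), and with the 16 lowest left out it passed (-2.06 ± 0.57, adjusted p = 0.0186). With the slide as a fixed block it was -3.15 ± 1.06 (adjusted p = 0.0471). It was also lost when FF rabbit lap82, lap88, lap90 or lap101 of day 35 or FF rabbit lap159, lap181, lap195, lap209, lap212 or lap213 of day 49 (numbered as in the labels) was left out (estimates between -3.25 and -2.87 there).

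In FFab rabbits NPC1L1 had a lowest, median and highest value of 5.12, 6.49 and 13.12 at day 49, against 7.20, 9.44 and 12.88 at day 35. In NF rabbits these were 6.14, 7.98 and 12.57 at day 49, against 6.58, 9.07 and 13.25 at day 35. Over all rabbits the ages overlapped over most of their range in both treatments. The changes, -1.99 ± 1.04 in FFab (adjusted p = 0.616) and -1.68 ± 1.06 in NF (adjusted p = 0.968), did not pass. Without the 14 rabbits the value was -2.37 ± 0.59 in FFab (adjusted p = 0.136) and -0.59 ± 0.65 in NF (adjusted p = 0.866). On that set FFab rabbits had 5.12, 6.39 and 9.03 (lowest, median, highest) at day 49, against 7.20, 9.06 and 11.52 at day 35. NF rabbits had 6.14, 6.90 and 9.41 at day 49, against 6.58, 8.47 and 9.07 at day 35. A difference in age change between treatments was not detected: FF minus NF was -1.54 with a 95% interval of -4.46 to 1.37 (adjusted p = 0.999), and the FF result is not shown to be particular to FF. Averaged over the 3 treatments NPC1L1 fell by 2.30 ± 0.60 (adjusted p = 0.00644), and without the 14 rabbits by 1.63 ± 0.35 (adjusted p = 0.00123).

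ABCA1, the cholesterol exporter, varied little and ran apart from the other genes. Its values in FF rabbits were 5.95, 6.78 and 7.53 (lowest, median, highest) at day 49, against 6.72, 7.46 and 8.25 at day 35. The ages overlapped, and the change of -0.67 ± 0.23 just missed the threshold (adjusted p = 0.0556). It was -0.65 ± 0.23 without the 14 rabbits (adjusted p = 0.0618), and the 4 probes of the gene gave -0.72 to -0.61, of which the 2 that share a sequence passed when all 31722 kept probes were tested one by one. In that test 3.14% of all probes passed. The change passed in 8 of the 13 other planned settings, with adjusted p between 0.0205 and 0.0698 over the 13 (0.0354 with the slide as fixed block). In FFab rabbits ABCA1 changed by -0.18 ± 0.23 and in NF rabbits by -0.24 ± 0.23. At day 35 it was 0.72 ± 0.22 lower in FFab than in FF rabbits before adjustment (p = 0.00198), which did not pass (adjusted p = 0.370).

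Of the fatty acid uptake genes, SLC27A4 passed in FF rabbits and was lower at day 49, and CD36 and FABP2 did not pass. SLC27A4 had 9.81, 10.28 and 10.66 (lowest, median, highest) in FF rabbits of day 49, against 10.54, 11.51 and 13.08 in FF rabbits of day 35. The ages overlapped between 10.54 and 10.66. The change was -1.48 ± 0.39 (adjusted p = 0.0112), and it kept passing when any single rabbit was left out (-1.61 to -1.33). It was -0.92 ± 0.21 without the 14 rabbits (adjusted p = 0.00382), which is likewise a description. The other SLC27A4 sequence gave -1.39 ± 0.42 over all 56 rabbits, in the same direction. In FFab and NF rabbits the changes, -0.49 ± 0.39 and -0.63 ± 0.40, did not pass, and the difference FF minus NF was -0.85 with a 95% interval of -1.95 to 0.25 (adjusted p = 0.999). Over the 3 treatments SLC27A4 fell by 0.87 ± 0.23 (adjusted p = 0.00644), and by 0.53 ± 0.13 without the 14 rabbits (adjusted p = 0.00376).

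CD36, a receptor that binds long-chain fatty acids, lay between 11.87 and 14.06 in the 14 rabbits and between 7.41 and 11.11 in the other 42. The sets did not overlap, but HOX genes were taken because they ran opposite to CD36, and its widest gaps between neighbouring rabbits lay inside the sets (0.99, from 11.87 to 12.86, in the 14, and 0.82, from 10.29 to 11.11, in the 42). In FF rabbits it was 8.49, 9.18 and 9.89 (lowest, median, highest) at day 49, against 8.20, 9.06 and 14.03 at day 35. The medians of the ages were close and the high values of day 35 belong to 3 rabbits. The change of -1.09 ± 0.91 (adjusted p = 0.549) had the opposite sign without the 14 rabbits (0.36 ± 0.34, adjusted p = 0.593). FABP2, the carrier of fatty acids in the enterocyte, had 16.80, 17.04 and 17.29 in FF rabbits of day 49, against 15.77, 16.73 and 17.89 at day 35, a change of 0.20 ± 0.28 (adjusted p = 0.776). It was 0.55 ± 0.19 without the 14 rabbits (adjusted p = 0.0572), which did not pass.

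**Figure D2:**
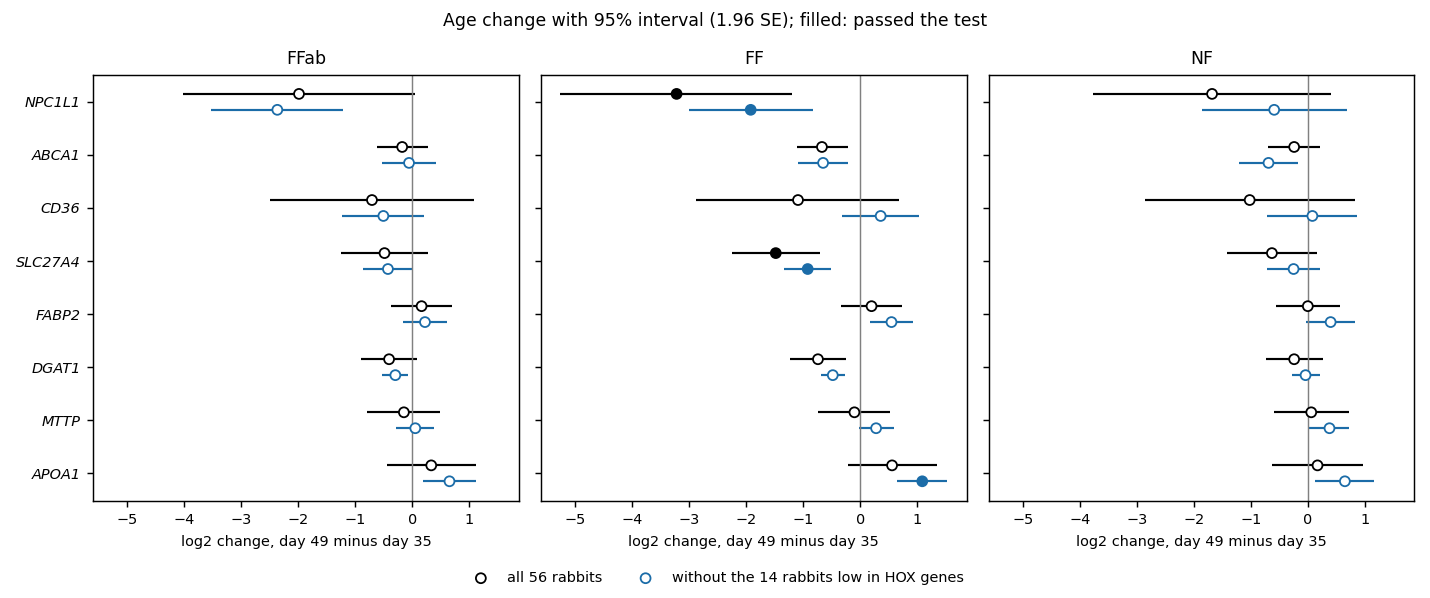
Age change (day 49 minus day 35, log2 scale) of the 8 genes in FFab, FF and NF rabbits, with 95% intervals, for all 56 rabbits (black) and without the 14 rabbits low in HOX genes (blue); filled points passed the test. NPC1L1 and SLC27A4 passed in FF on both sets, and APOA1 (1.09) only without the 14 rabbits. The set without the 14 was chosen after the data were seen and is a description.

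Neither DGAT1 nor MTTP, genes of triglyceride synthesis and chylomicron assembly, passed in FF rabbits. DGAT1 had 11.40, 11.53 and 11.80 (lowest, median, highest) in FF rabbits of day 49, against 11.81, 12.17 and 13.06 in FF rabbits of day 35. The ages did not overlap, but the change of -0.74 ± 0.25 just missed the threshold (adjusted p = 0.0530). It passed in 8 of the 13 other planned settings, with adjusted p between 0.00573 (only the groups compared fitted) and 0.0760 over the 13. Without the 14 rabbits it was -0.48 ± 0.11, with adjusted p = 0.00327 but under the minimum change of 0.5. MTTP had 10.89, 11.17 and 11.70 at day 49, against 10.26, 11.13 and 12.60 at day 35 in FF rabbits, and its change of -0.10 ± 0.32 (adjusted p = 0.916) was 0.28 ± 0.16 without the 14 rabbits (adjusted p = 0.285).

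APOA1 passed in FF rabbits where rabbits low in HOX genes were left out or the HOX mean was a covariate, and under none of the other settings run over all rabbits. Over all FF rabbits it had 16.02, 16.52 and 16.72 (lowest, median, highest) at day 49, against 14.22, 15.85 and 17.25 at day 35, and the change of 0.56 ± 0.40 did not pass (adjusted p = 0.454). Among rabbits not low in HOX genes the values of day 35 ended at 16.35, and the change was 1.09 ± 0.23 (adjusted p = 0.00185, 2.13-fold higher at day 49). It was 0.65 ± 0.24 in FFab (adjusted p = 0.581) and 0.65 ± 0.26 in NF rabbits (adjusted p = 0.366), and 0.79 ± 0.14 over the 3 treatments (adjusted p = 1.73e-04). Since the rabbits were left out by a measure chosen after the data were seen, the rise is a description of the 42.

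In FFab and NF rabbits the remaining genes differed less between the ages than among rabbits of 1 age. DGAT1 averaged 11.90 ± 0.57 (SD, n = 9) in FFab rabbits of day 49 and 12.31 ± 0.63 (n = 10) in those of day 35, and 11.88 ± 0.69 (n = 9) in NF rabbits of day 49 and 12.12 ± 0.64 (n = 9) in those of day 35. Over the 3 treatments DGAT1 changed by -0.47 ± 0.15, with adjusted p = 0.0231 but under the minimum change. SLC27A4 averaged 10.85 ± 0.90 in FFab rabbits of day 49 and 11.34 ± 0.89 in those of day 35, and 10.72 ± 0.86 in NF rabbits of day 49 and 11.34 ± 1.07 in those of day 35. The SD of NPC1L1 was 0.81 in FF rabbits of day 49, against 2.20 in FF rabbits of day 35, and between 2.11 and 3.09 in the FFab and NF groups. Of the 6 groups, FF rabbits of day 49, with none of the 14, had the smallest SD of every gene except ABCA1.

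CD36 averaged 9.88 ± 2.24 in FFab rabbits of day 49 and 10.59 ± 2.24 in those of day 35, and 9.67 ± 1.72 in NF rabbits of day 49 and 10.69 ± 2.34 in those of day 35. Its changes were -0.71 ± 0.91 in FFab and -1.02 ± 0.94 in NF (SE), neither of which passed. The changes of MTTP, APOA1 and FABP2 in these treatments lay between -0.15 and 0.33 with standard errors of 0.28 to 0.41, and none passed.

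Counted over the comparisons, 2 of the 8 genes passed in FF rabbits (NPC1L1 and SLC27A4, both lower), where 4.31% of all genes passed, and the same 2 over the 3 treatments, where 3.49% passed. None passed in FFab rabbits (0.0752% of all genes) or in NF rabbits (0.0376%). For the differences in age change between treatments 0 of 7975 genes passed in each (0%), with 228, 73 and 361 genes at an unadjusted p under 0.05 for FFab minus FF, FFab minus NF and FF minus NF. Of the comparisons between treatments at 1 age, 0.0125% of genes passed for FFab minus FF and 0.0376% for FF minus NF at day 35, and 0% for FFab minus NF at day 35 and for all 3 pairs at day 49. No member passed in any of these 72 tests, the smallest adjusted p being 0.370, with 2 at an unadjusted p under 0.05. Without the 14 rabbits, as a description, 3 members passed in FF and over the 3 treatments (NPC1L1, SLC27A4 and APOA1). There 4.85% and 3.99% of genes passed. On that set 0.0627% passed in FFab and 0.0878% in NF, and 0% for each difference in age change.

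Some markers of cell types moved with age too. Of the 16 measured markers of absorptive enterocytes, ALPI, DPP4 and SLC5A1 rose in FF rabbits and none fell, and 15 of the 16 were above background on every array. The mean level of the 16 ran from 12.73 to 13.09 in FF rabbits of day 49, against 11.77 to 13.43 in FF rabbits of day 35. Without the 14 rabbits 7 of the 16 rose, among them SI (0.94 ± 0.23). Of 9 measured markers of fat tissue, which also uses CD36, FABP4, LPL and THRSP rose in FF rabbits. The list mean ran from 8.87 to 9.47 in FF rabbits of day 49, against 8.01 to 8.77 at day 35. This was not particular to FF. The median log2 change of the list was 0.68 in FFab, 0.50 in FF and 0.96 in NF rabbits. THRSP also passed in FFab (1.19 ± 0.26), and 5 of the 9 rose over the 3 treatments. Of 7 measured markers of macrophages, which also use CD36 and ABCA1, none passed. Of 5 measured markers of red blood cells, 2 were above background on every array. CA1 fell by 2.49 ± 0.67 (adjusted p = 0.0132) and EPOR by 2.24 ± 0.69 (adjusted p = 0.0332) in FF rabbits. ALAS2 (-0.67 ± 0.29) and SLC4A1 (-0.16 ± 0.28) did not pass there, nor did the remaining marker (-0.08 ± 0.21). The list mean, which includes CA1 and EPOR, ran from 5.70 to 6.33 in FF rabbits of day 49, against 6.01 to 8.03 in FF rabbits of day 35. CA1 and EPOR also fell without the 14 rabbits, by 3.16 ± 0.78 and 0.93 ± 0.25, and CA1 is also expressed by colonic epithelium. In whole tissue, fewer cells of a type and less RNA per cell cannot be told apart, and the part of these markers in the results was not tested.

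The other genes of the pathway were counted by list, where 4.31% of all genes passed in FF rabbits. None of 11 measured genes of fat uptake and activation passed in FF rabbits (median log2 change 0.15, against -0.01 over all genes), although DBI, which binds acyl-CoA, had 0.36 ± 0.08 with adjusted p = 0.00311 and lay under the minimum change. None of 18 genes of cholesterol transport and esterification passed (median -0.00), nor of 8 genes of chylomicron assembly (median -0.02). SOAT2, which esterifies cholesterol in enterocytes, had -1.56 ± 0.77 (adjusted p = 0.234), and APOA2 had -1.87 ± 0.75 (adjusted p = 0.121). Of 15 genes of fat resynthesis AGPAT4 alone passed (0.71 ± 0.20, adjusted p = 0.0148). Of 13 genes of cholesterol synthesis EBP alone rose (0.55 ± 0.14, adjusted p = 0.00980), and it did not pass without the 14 rabbits.

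Bile acid handling and lipid digestion were counted in the same way. Of 11 genes of bile acid handling FGF19, the hormone through which the ileum restrains bile acid synthesis, fell by 3.97 ± 0.55, and the nuclear receptor NR0B2 by 1.90 ± 0.57. Of 5 genes of lipid digestion the phospholipase PLA2G1B fell by 0.90 ± 0.25. None of 14 transcriptional regulators of lipid genes passed over all 56 rabbits. Without the 14 rabbits AGPAT4, EBP and NR0B2 no longer passed. On that set MOGAT1, a monoacylglycerol acyltransferase, rose by 0.79 ± 0.18 (adjusted p = 0.00460), the lipase PNLIP by 1.13 ± 0.34 (adjusted p = 0.0265) and SLC10A2 by 0.92 ± 0.21 (adjusted p = 0.00460). PPARGC1A, a transcriptional coactivator, rose by 0.57 ± 0.18 (adjusted p = 0.0323) and CYP27A1, a sterol hydroxylase of bile acid synthesis, by 0.64 ± 0.21 (adjusted p = 0.0431) on the same set.

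**Figure D3:**
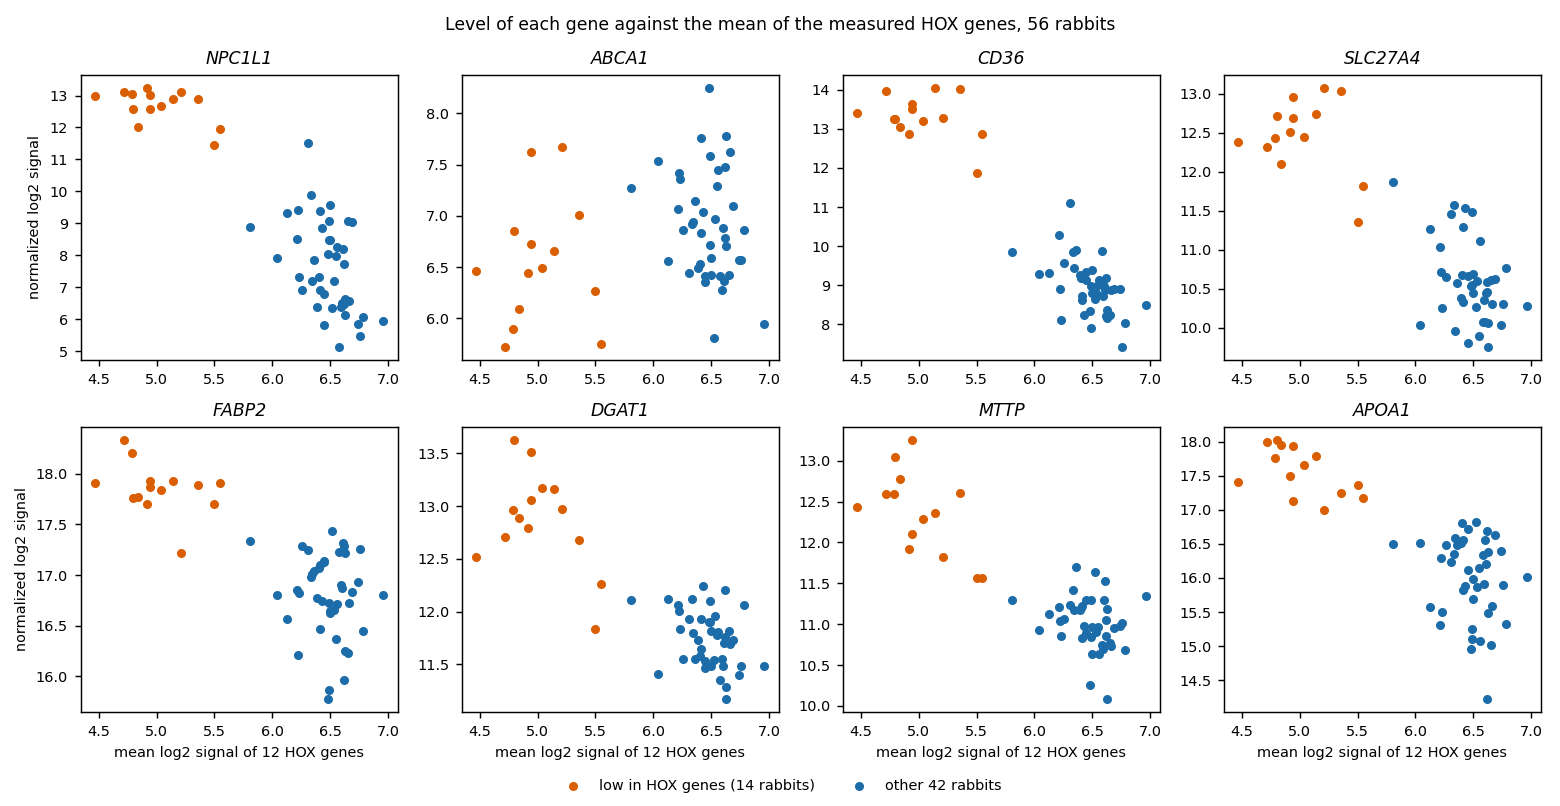
Normalized log2 signal of the 8 genes against the mean log2 signal of 12 HOX genes in 56 rabbits, with the 14 rabbits low in HOX genes in orange. CD36 and APOA1 do not overlap between the 14 and the other 42. ABCA1 overlaps over most of its range (5.72 to 7.67 in the 14, 5.81 to 8.25 in the 42), with a lower median in the 14 (6.48, against 6.86).

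Part of the pairs of genes varied together from rabbit to rabbit. Since the rabbits were divided by HOX level, pairs were tested within each set. Within the 42 rabbits, with group means taken out, 18 of the 28 pairs passed (permutation test over rabbits within groups, Benjamini-Hochberg over 28 pairs), of which 16 were positive. APOA1 and FABP2 had r = 0.63 (rho = 0.51, permutation p = 8e-05, adjusted p = 0.00224), SLC27A4 and MTTP r = 0.59 (rho = 0.51, adjusted p = 0.00392), and SLC27A4 and NPC1L1 r = 0.55 (rho = 0.57, adjusted p = 0.00266). ABCA1 ran opposite to FABP2 (r = -0.48, rho = -0.42, adjusted p = 0.0150) and to MTTP (r = -0.42, rho = -0.33, adjusted p = 0.0263). When the 2 rabbits farthest from the median of the first gene were left out of each pair, 9 of 28 pairs passed. Neither pair with ABCA1 was among them. The median r over the pairs was 0.30 then, against 0.38 in the 42. Leaving out the extreme rabbits also narrows the range of a gene, so a lost call does not show that a pair rests on them. Within the 14 rabbits r reached 0.90 for NPC1L1 and SLC27A4, but 0 of 28 pairs passed, the smallest adjusted p being 0.0931.

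**Figure D4:**
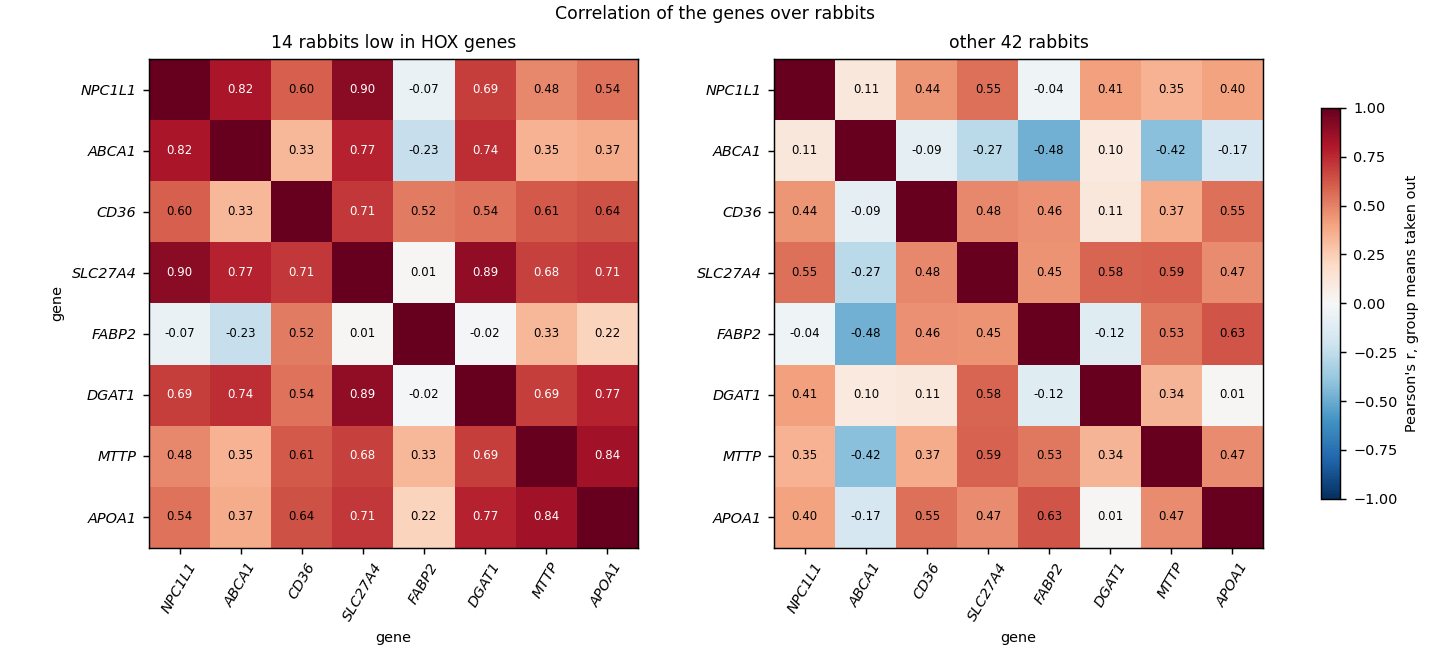
Pearson's r of each pair of genes over rabbits, group means taken out, within the 14 rabbits low in HOX genes (left) and within the other 42 (right). Most pairs without ABCA1 are positive in the 42, up to 0.63 for APOA1 and FABP2, and ABCA1 and FABP2 have -0.48.

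The genes whose pattern was most like that of a member were looked up over the 56 rabbits with group means taken out, as a description. These values include the difference between the 14 and the 42 rabbits, and the HOX genes were the measure that divided them. For NPC1L1 the highest were CPO (r = 0.93), ME1 (0.93) and ASAH2 (0.91) among genes that are no member, and the lowest HOXB1 (-0.91), HOXD3 (-0.89) and HOXA10 (-0.88). For SLC27A4 they were ANXA13 (0.94), SEC14L2 (0.94) and SOAT2 (0.93). For ABCA1 they were TLR4 (0.75), NAP1L1 (0.74) and RIPK2 (0.71), none of them a member. Over the 42 rabbits alone the value for NPC1L1 was 0.62 with ME1 and 0.55 with SLC27A4, and all these points share the rabbit, its array and its slide.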

How the data were processed

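Cy3-labelled RNA of 57 rabbits had been hybridized to Agilent arrays, and the authors deposited 1 scanner file of spot intensity per array beside a series table with log2 values of 33284 probes. The labels name Feature Extraction 10.7.3.1 and the file headers 10.10.1.1. Of 62976 spots 1319 were controls. The background-subtracted intensity was averaged over the spots of a probe (0.57% of spots flagged as outlier left out), set to log2 and quantile normalized. The deposited log2 values, whose processing beyond quantile normalization is not given in the sources used here, served as an alternative (median r 0.989).

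A probe was kept when a share of 0.5 or more of its spots was well above background in 75% of the arrays of a group (31722 probes), and the probe of median level stood for a gene. limma 3.58.1 in R 4.3.3 fitted a mean per group over 56 arrays. All 57 arrays lay on 9 slides, each with several groups, and had 1 scan day. The number of arrays limits the precision.

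Genes named were all members, list genes that passed or had up to 4 of the smallest p in FF, and the most alike genes. The members and lists were chosen with earlier results of these data known. Correlations used 100000 permutations. Leaving out rabbits by HOX level, and the HOX mean as a covariate, were chosen after seeing the data, and HOX genes were taken because they ran opposite to NPC1L1 and CD36. The fit and the correlations were tested on simulated data. The sources disagree on the later age, which is day 49 in the labels. Some results are not reported here.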

Additional observations from a re-analysis of the deposited data

Results flagged for a closer look

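Of 48 groups of rabbits checked (8 genes in 6 groups), 2 held a rabbit far from the others by Dixon's ratio, where chance gives about 1 in 20 groups. Both flags concern NF rabbit lap206 of day 49, which is among the 14 low in HOX genes. Its DGAT1 level was 13.63, against 12.01 in the next highest rabbit (ratio 0.69), and its MTTP level was 13.05, against 11.64 (ratio 0.60).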

How the results depend on the processing

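For the age change in FF, 2 members passed. The count was 4 with the slide as random block, the deposited value table, probes above background on every array, the mean of all kept probes or the HOX mean as covariate, 1 with no filter on dim probes, and 5 without the 16 rabbits lowest in HOX genes. Leaving out single rabbits gave 1 to 4 members in FF (4 without NF rabbit lap79 of day 35) and 2 to 3 over the 3 treatments. The counts of the other 11 comparisons stayed at 0 under every setting run. No paired analysis was possible because the groups share no rabbit numbers.

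NPC1L1 in FF did not pass with a normexp background (-2.62), the median signal (-2.83) or no filter on dim probes (-3.22), and its range over single rabbits left out was -3.47 to -2.87. SLC27A4 over the 3 treatments was -0.46 with the HOX mean as covariate and -0.42 without the 16 rabbits, under the minimum change.

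Signs turned mostly where rabbits low in HOX genes were left out, and the cause was not tested. Without the 14 rabbits, the HOX mean as covariate, without 12 and without 16 rabbits, MTTP was 0.05, 0.08, 0.05 and 0.05 in FFab, 0.28, 0.28, 0.28 and 0.31 in FF, and 0.23, 0.27, 0.21 and 0.29 over the 3 treatments. CD36 in FF was 0.36, 0.04, 0.36 and 0.35. In NF, CD36 was 0.08 without the 14, 0.11 with the covariate and 0.35 without 16. Over the 3 treatments CD36 was 0.04 with the covariate and 0.06 without 16. In NF, without 16, SLC27A4 was 0.07 and DGAT1 0.07, and DGAT1 was 0.04 with the covariate. MTTP in NF was -0.07 with array weights. FABP2 in NF was -0.01 with the slide as random or fixed block and -0.00 with the value table.

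Of the 28 pairwise correlations 27 passed over all 56 rabbits (21 positive and 6 negative), where the clusters enter. Within the 42 rabbits 18 did, and 9 without the farthest 2. Within the 14 rabbits 0 did, and 0 without the farthest 2. The other settings gave 26 to 28.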
